A study of Mus musculus with 8 samples.

Results

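The 6 genes described here, Trpm2, Trpm3, Trpm4, Trpm5, Trpm6 and Trpm7, encode channels of the TRPM family and were taken by name from the 17362 genes of the single nucleus RNA-seq table. They were chosen by name with earlier values from these data known, among them the low Trpm3 level of untreated mutant beta cells, so that the levels and ratios below describe the pools and support no claim about the family. Islets were isolated from wild type (WT) mice and from mice with a whole-body knock-in of Med14 S983A, in which a phosphorylated serine of a Mediator subunit is replaced by alanine. The 3 conditions of each genotype were untreated (CON), forskolin (FSK), which activates adenylyl cyclase directly, and Exendin-4 (Ex-4), a GLP-1 receptor agonist, given at 10 nM for 16 h. The sources used here do not give the FSK dose for islets, the age of the mice or the number of mice behind each pool.

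About 100 hand-picked islets were used for each preparation, their nuclei were sorted by DAPI staining and barcoded, and nuclei of all 6 conditions ran in each of 8 sublibraries. The table holds 1 pooled column for each condition in each of 9 annotated cell types, 54 columns in all. No replicates exist, so no test was possible, and the condition cannot be told apart from the islet preparation. Levels are given in counts per 10000 of the column total (CP10K) with exact Poisson 95% intervals, which cover counting error only. Column totals were 1915006 to 3094377 counts in beta cells, 269394 to 810127 in alpha cells, 362410 to 631433 in delta cells, and 1522 to 159305 in the other 6 cell types. The marker list of a cell type was highest in its own columns for 8 of 9 types. The exception was the neuron list, which summed to 21.4 CP10K in delta cells and to 9.32 CP10K in the columns annotated as neurons, and these are called by their annotation only.

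TRPM channels are tetrameric cation channels of the plasma membrane. In beta cells, closure of KATP channels depolarizes the membrane and opens calcium channels, and a background current through non-selective cation channels adds to that depolarization. TRPM2 is opened by ADP-ribose and calcium and passes calcium. TRPM3 passes calcium and zinc, is opened by the neurosteroid pregnenolone sulfate and by heat, depends on PIP2 and is held shut by G protein beta-gamma subunits. TRPM4 and TRPM5 are opened by internal calcium and pass sodium and potassium but not calcium, and TRPM5 is the transduction channel of taste cells. TRPM6 and TRPM7 are channels fused to a kinase that pass magnesium and other divalent cations. TRPM7 is found in most cells, whereas TRPM6 is known from kidney and gut epithelium.

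The genes differ greatly in length, and nuclear RNA is rich in intronic reads. In GRCm39, Trpm3 spans 856 kb on the plus strand (chr19:22116410-22972774) and holds the microRNA gene Mir204 on the same strand. Trpm6 spans 143 kb (chr19:18727089-18869875, plus), Trpm7 84.7 kb (chr2:126633480-126718182, minus) and Trpm2 62.9 kb (chr10:77743556-77806405, minus). Trpm4 spans 34.9 kb (chr7:44949126-44983986, minus) and Trpm5 25.5 kb (chr7:142622890-142648379, minus). All 6 overlap other annotated genes, from 2 for Trpm4, Trpm5, Trpm6 and Trpm7 to 10 for Trpm3, and the sources used here do not say whether counting took account of strand.

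Trpm3 and Trpm5 were the members with their highest summed level in beta cells. Trpm3 was low in alpha cells and was shared by beta and delta cells, whereas Trpm5 was higher in beta cells than in alpha and delta cells in every condition. Trpm7 was present in every cell type, with higher summed levels in endothelial, macrophage and muscle columns than in endocrine cells. Trpm2 was highest in macrophages, followed by columns annotated as neurons and by beta cells, and Trpm4 was higher in alpha than in beta cells. Trpm6 was near 0 everywhere.

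**Figure D1:**
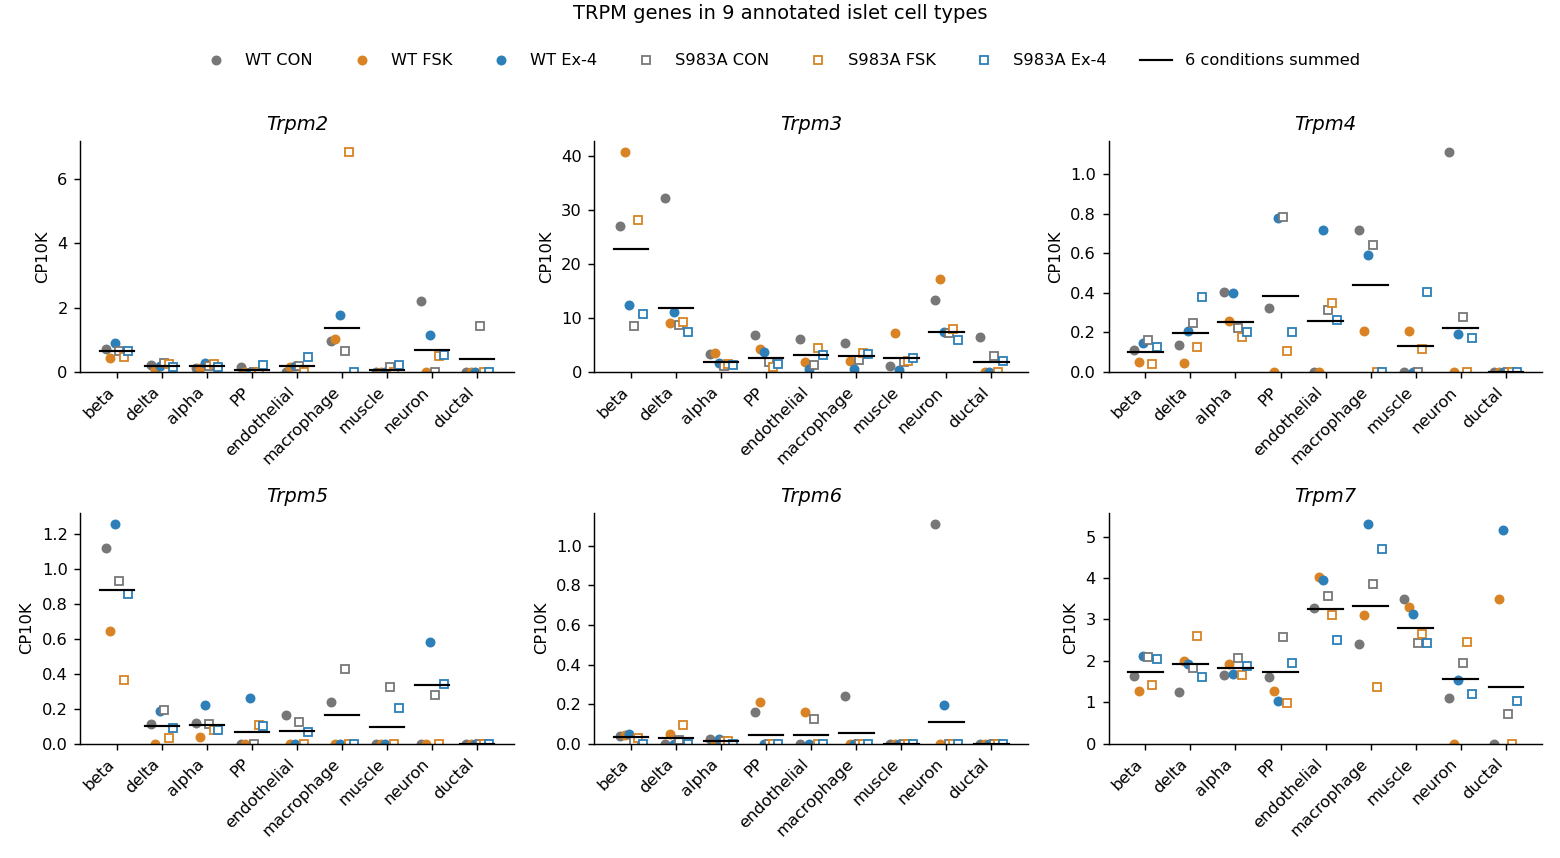
Level of each TRPM gene in CP10K (vertical axis, a separate scale for each gene) in the 9 annotated cell types. Each point is 1 pooled column, filled circles are WT and open squares Med14 S983A, and the black line is the level of the counts summed over the 6 conditions. The summed levels of Trpm3 and Trpm5 are highest in beta cells (lines at 22.8 and 0.879 CP10K), and that of Trpm7 in macrophages and endothelial cells (3.33 and 3.26 CP10K). In untreated WT alone, Trpm3 is higher in delta (32.3 CP10K) than in beta cells (27.2 CP10K). The single high Trpm2 point in macrophages (6.85 CP10K) rests on 10 counts.

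In beta cells the Trpm3 level had a lowest column of 8.61 CP10K, a median of 19.8 and a highest of 40.8. In delta cells the corresponding levels were 7.33, 9.16 and 32.3 CP10K. In alpha cells they were 1.12, 1.59 and 3.49 CP10K. The beta and delta ranges overlapped, and every alpha column lay below every beta and delta column. Columns annotated as neurons reached a median of 7.62 CP10K (5.83 to 17.3), and the medians of PP, endothelial, macrophage, muscle and ductal columns were between 1.04 and 2.75 CP10K.

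RNA of beta cell marker genes was counted in columns of other cell types, and its share is set beside these levels. Where this RNA came from was not tested. As a measure added after seeing the data, the level of Ins1 and Ins2, the insulin genes, in alpha columns was 10.5 to 15.2% of the level in beta columns of the same condition. The 7 beta cell markers together stood at 28.1 to 55.6% in alpha columns and at 11.3 to 21.1% in delta columns. Trpm3 in alpha columns was 5.50 to 13.1% of its beta level, and in 0 of 6 conditions did its interval lie above the insulin share. Trpm3 in delta columns was 22.1 to 119% of its beta level and lay above the insulin share (6.40 to 18.7%) in 6 of 6 conditions. Trpm3 RNA in delta columns was thus beyond the level of insulin RNA there, while in alpha columns it was not. In columns annotated as neurons the insulin share was 14.9 to 63.9%, and Trpm3 lay above it in only 2 of 6 conditions.

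Trpm5 in beta cells ran from 0.365 through a median of 0.893 to 1.26 CP10K. The lowest beta column lay above the highest alpha column (0.222 CP10K) and the highest delta column (0.194 CP10K). Trpm5 was 5.74 to 20.9% of the beta level in alpha cells and 0 to 20.9% in delta cells, with 0 of 6 intervals above the insulin share in either. The columns annotated as neurons had a summed level of 0.335 CP10K from 6 counts, too few to place Trpm5 there.

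Trpm2 was 0.436, 0.654 and 0.916 CP10K in the lowest, median and highest beta column. Its beta level lay above alpha in 6 of 6 conditions and above delta in 6 of 6, judged by the interval of the ratio. In macrophages the summed level was 1.37 CP10K (0.884 to 2.02) from 25 counts, of which 10 came from the S983A FSK column, and without that column's 6.85 CP10K the columns ran from 0 to 1.77 CP10K. The macrophage level lay above the insulin share in 4 of 6 conditions. In the columns annotated as neurons Trpm2 was 0.670 CP10K (0.346 to 1.17) from 12 counts, not distinguishable from beta cells at this depth. It lay above the insulin share there in only 1 of 6 conditions.

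Trpm4, the closest relative of Trpm5 in the family, had the reverse pattern among endocrine cells. In alpha cells it was 0.405, 0.260 and 0.399 CP10K in WT CON, FSK and Ex-4, and 0.222, 0.178 and 0.202 in the mutant. Beta cells had a median of 0.119 CP10K and a highest column of 0.161. The alpha to beta ratio was 138 to 536% and its interval lay above equality in 4 of 6 conditions. Counts were few, with 157 in beta, 90 in alpha and 59 in delta cells over all conditions.

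Trpm7 was 1.73 CP10K in beta, 1.83 in alpha, 1.92 in delta and 1.74 in PP cells over all conditions. These endocrine values were close, and their ranges over conditions overlapped. In endothelial cells it was 3.26 CP10K (2.85 to 3.72), above beta in 5 of 6 conditions, and in macrophages 3.33 CP10K (2.55 to 4.28), above beta in 3 of 6. Muscle columns had 2.80 CP10K (2.24 to 3.46), above beta in 2 of 6. Trpm6 totalled 51 counts in beta, 4 in alpha and 9 in delta cells. It was listed at 0 in the S983A Ex-4 beta column, where the lowest nonzero total of any gene in that condition was 10 counts, so that this 0 sets no limit. Over all 6 genes, 47 of the 48 pairs of neighbours in the order of cell types had overlapping ranges over conditions. The exception was Trpm4 in beta against ductal cells, where it was listed at 0. The remaining members of the family were Trpm1, at most 0.00970 CP10K in a beta column, and Trpm8, listed at 0 in all beta columns.

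Between genes, levels can be set side by side only per length, and the order then depends on which length is used. Per 100 kb of gene span, untreated WT beta cells held 4.39 CP10K of Trpm5, 3.17 of Trpm3, 1.94 of Trpm7, 1.11 of Trpm2 and 0.324 of Trpm4. Per kb of annotated exon, Trpm3 came first with 1.10 CP10K, followed by Trpm5 with 0.175 and Trpm7 with 0.144. After FSK, the span-scaled levels in WT beta cells were 4.76 CP10K for Trpm3 and 2.54 for Trpm5.

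The bases before the start sites of Trpm3, called higher with FSK in beta cells, and of Trpm2 and Trpm5, called lower, are shown here, since cAMP acts on many promoters through the CREB site. RefSeq promoter entries (GRCm38.p6) were found for 5 of the 6 genes, with 2 starts for Trpm3, and not for Trpm4. Each was placed on GRCm39 by exact match and is shown on the gene's strand up to the first annotated exonic base. Capitals mark a TGACG match. Trpm2, chr10:77805709-77805956, minus strand:
Trpm2: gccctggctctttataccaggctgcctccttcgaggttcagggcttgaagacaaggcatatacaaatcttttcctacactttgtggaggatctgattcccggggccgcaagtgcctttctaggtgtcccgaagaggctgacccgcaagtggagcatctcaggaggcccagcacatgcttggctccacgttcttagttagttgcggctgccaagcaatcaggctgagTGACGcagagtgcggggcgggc
Trpm3, first start, chr19:22116160-22116409, plus strand:
Trpm3 first start: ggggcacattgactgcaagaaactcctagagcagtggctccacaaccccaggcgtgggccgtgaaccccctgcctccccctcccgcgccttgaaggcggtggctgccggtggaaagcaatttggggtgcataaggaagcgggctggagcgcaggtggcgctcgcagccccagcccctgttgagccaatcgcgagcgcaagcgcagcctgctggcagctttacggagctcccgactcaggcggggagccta
Trpm3, second start, 309 kb further into the gene, chr19:22425322-22425546, plus strand:
Trpm3 second start: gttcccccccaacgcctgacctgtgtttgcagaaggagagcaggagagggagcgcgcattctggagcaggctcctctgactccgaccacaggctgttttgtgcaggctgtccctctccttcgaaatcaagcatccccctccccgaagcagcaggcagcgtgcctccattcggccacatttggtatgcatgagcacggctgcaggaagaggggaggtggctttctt
Trpm5, chr7:142648380-142648629, minus strand:
Trpm5: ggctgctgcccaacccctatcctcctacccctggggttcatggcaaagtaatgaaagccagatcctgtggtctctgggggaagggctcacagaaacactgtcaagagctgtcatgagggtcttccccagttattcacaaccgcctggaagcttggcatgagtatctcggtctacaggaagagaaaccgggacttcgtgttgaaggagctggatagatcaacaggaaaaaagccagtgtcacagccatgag

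The 250 bases before each start were searched on both strands for TGACGTCA, the full CREB site, and for TGACG, its shorter form, which the full site contains. The full site was in 0 of the 6 windows and in 1.55% of all 32851 entries. TGACG was in 1 window, that of Trpm2, 24 bases before the start, and in 17.8% of all entries. A match is a run of letters and no more, other windows were not searched, and longer Trpm2 transcripts start upstream of the one shown. The first Trpm3 start lies in 66.4% G and C, the second in 59.2% and Trpm5 in 52.8%, beside a median of 52.4% over all entries.

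In beta cells the members split by treatment. FSK was accompanied by a higher Trpm3 level and lower Trpm5, Trpm4 and Trpm2 levels in both genotypes, of which Trpm2 in the mutant and Trpm4 in WT were not called. Relative to the median gene, which was itself lower with FSK in WT, the WT differences of Trpm5 and Trpm2 were short of 1.5-fold. Ex-4 was accompanied by a lower Trpm3 level in WT and by no called difference in the mutant, where Trpm3 was already low without treatment. A gene was called when its CP10K differed by at least 1.5-fold and the Poisson intervals of both columns did not overlap, and the share of all kept genes called by this rule is given beside each count. Genes were kept by a filter on mean level, which Trpm2, Trpm3, Trpm4, Trpm5 and Trpm7 passed in beta, alpha and delta cells and Trpm6 in none. The WT Ex-4, WT FSK and baseline genotype comparisons share the WT CON column, and the 2 mutant treatment comparisons and the baseline comparison share the S983A CON column.

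**Figure D2:**
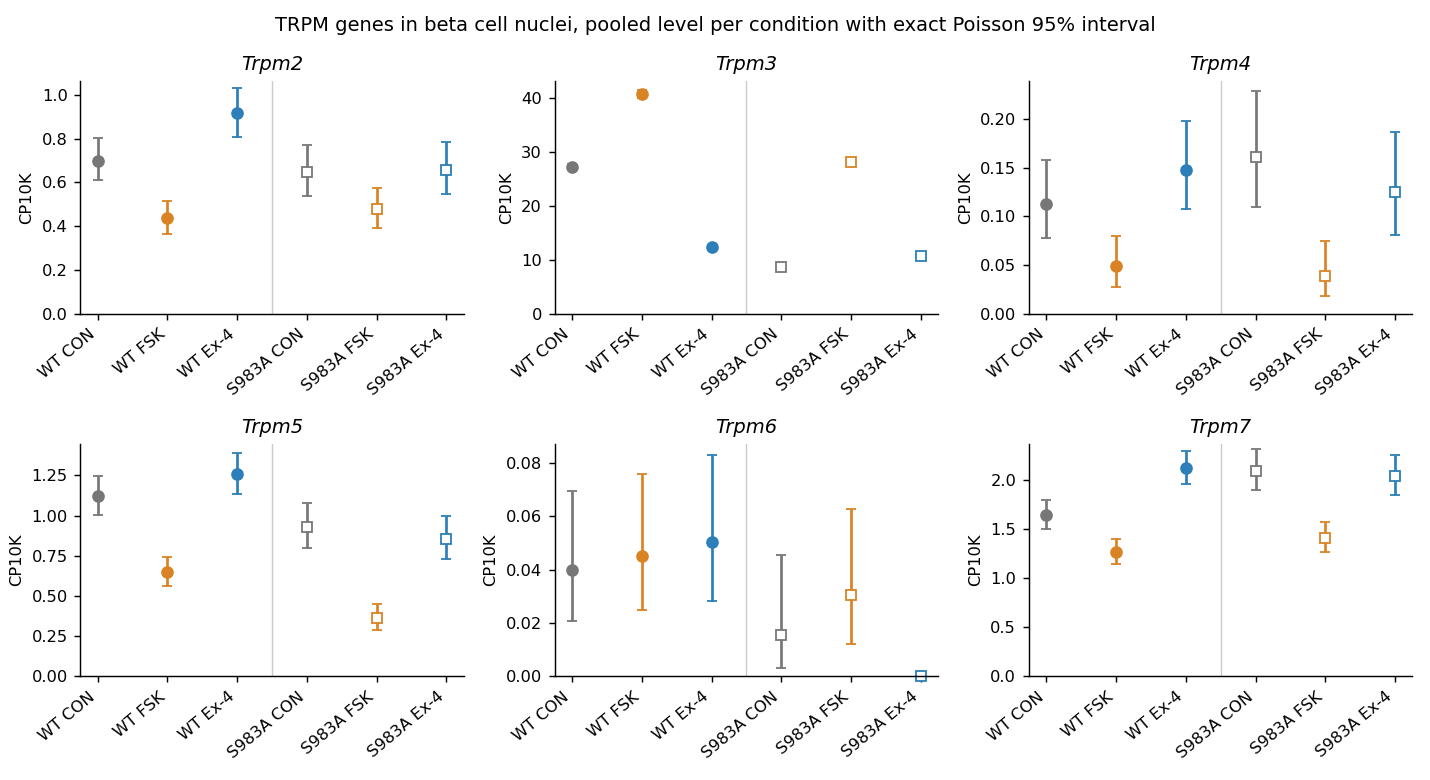
Level of each TRPM gene in beta cell nuclei in CP10K (vertical axis from 0, a separate scale for each gene) in the 6 conditions. Points are pooled columns, bars are exact Poisson 95% intervals, and those of Trpm3 are smaller than the symbols in most columns. The 2 FSK columns are the highest for Trpm3 (40.8 and 28.2 CP10K) and the lowest for Trpm2, Trpm4, Trpm5 and Trpm7. Trpm6 was listed at 0 in the S983A Ex-4 column and is drawn without an interval.

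Trpm3 in WT beta cells was 27.2 CP10K untreated, 40.8 with FSK and 12.4 with Ex-4, from 8182, 12622 and 3687 counts. In the mutant it was 8.61 CP10K in S983A CON, 28.2 in S983A FSK and 10.7 in S983A Ex-4, from 1658, 6498 and 2055 counts. The untreated mutant column was the lowest of the 6 and stood beside both Ex-4 columns. Both FSK columns stood above the untreated WT column, but the Poisson intervals of S983A FSK (27.5 to 28.9) and WT CON (26.6 to 27.8) overlapped. The 5 neuron markers, which summed to more in delta than in any other columns, had a like order in beta cells, with 16.6, 19.2 and 10.3 CP10K in WT and 9.74, 18.5 and 10.3 in the mutant. Their part in the Trpm3 differences was not tested.

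With Ex-4 in WT, 1 of 5 members was called in beta cells, beside 29.6% of 10093 kept genes. Trpm3 was 2.20-fold lower (log2 ratio -1.13, counting interval -1.19 to -1.08). Only 1.95% of kept genes had a lower ratio, but the ratios of all genes fell with gene span in this comparison, and after removal of that trend the Trpm3 log2 ratio was -0.34, short of 1.5-fold. Trpm2 (0.39), Trpm4 (0.39), Trpm7 (0.37) and Trpm5 (0.17) had log2 ratios above 0 and were not called. Of these, the intervals of Trpm2 (0.12 to 0.65) and Trpm7 (0.20 to 0.55) lay above 0.

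With Ex-4 in the mutant, 0 of 5 members were called in beta cells, beside 1.47% of kept genes. Trpm3 had a log2 ratio of 0.32 (0.22 to 0.41), a 1.25-fold higher level and opposite in sign to WT. Trpm2 had 0.02 (-0.35 to 0.39), Trpm5 -0.12 (-0.43 to 0.20) and Trpm7 -0.04 (-0.24 to 0.17). The intervals of these 3 genes included 0 and left out 1.5-fold in either direction. The Trpm4 interval was wide (-1.19 to 0.45), so that no difference was detectable at 31 and 24 counts.

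With FSK in WT, 3 of 5 members were called in beta cells, 1 higher and 2 lower, beside 25.5% of kept genes. Trpm3 was 1.502-fold higher (log2 ratio 0.59, 0.55 to 0.63), at the edge of the rule, and past it on the ratio but not with columns rescaled (0.58) or on log2(CP10K + 1) (0.57). Trpm5 went from 1.12 to 0.646 CP10K, 1.73-fold lower (-0.79, -1.05 to -0.54). Trpm2 went from 0.700 to 0.436 CP10K, 1.61-fold lower (-0.68, -1.01 to -0.37). Lower ratios than those of Trpm5 and Trpm2 were found in 24.4% and 28.9% of kept genes. The median log2 ratio of all kept genes was -0.31 here, so that relative to it the differences of Trpm2 and Trpm5 were smaller and short of 1.5-fold, while that of Trpm3 was larger, at 0.90. Without the span trend, Trpm2 (-0.525) and Trpm5 (-0.37) were also short of 1.5-fold, and Trpm3 was at 0.60. Trpm4 had 34 counts in WT CON and 15 in WT FSK, a log2 ratio of -1.22 (-2.20 to -0.30) with overlapping Poisson intervals, and Trpm7 had -0.38 (-0.57 to -0.18), not called.

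With FSK in the mutant, 3 of 5 members were called in beta cells, again 1 higher and 2 lower, beside 39.8% of kept genes. Trpm3 was 3.28-fold higher (1.71, 1.63 to 1.79), and a higher ratio was found in 3.02% of kept genes. The base of this ratio is the untreated mutant level, known to be low when the genes were chosen, so its rank is no independent result. Trpm3 remained past 1.5-fold after removal of the span trend (0.99). Trpm5 went from 0.930 to 0.365 CP10K, 2.55-fold lower (-1.35, -1.74 to -0.97). Trpm4 went from 31 to 9 counts, 4.12-fold lower (-2.04, -3.30 to -0.94), and Trpm2 (-0.44, -0.83 to -0.06) and Trpm7 (-0.57, -0.78 to -0.35) were not called. With columns rescaled without 14 transcripts (6 mitochondrial, the others linked to ribosomal RNA or strongly changed), 5 of 5 members were called. The ratios of the other 4 members were thus below 0 beside the higher Trpm3 level.

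Between untreated genotypes, 1 of 5 members was called in beta cells, beside 34.4% of kept genes. Trpm3 was 3.15-fold lower in the mutant (-1.66, -1.73 to -1.58), the value known when the genes were chosen, and 1.13% of kept genes had a lower ratio. After removal of the span trend it was -0.80, still past 1.5-fold. Trpm7 was 1.28-fold higher (0.35, 0.16 to 0.55) not called, and past 1.5-fold after that removal, at 0.71. Trpm5 (-0.27), Trpm2 (-0.11) and Trpm4 (0.51) were not called.

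The genotype difference of Trpm3 in beta cells was smaller between treated pools than between untreated ones. The mutant to WT log2 ratio was -1.66 without treatment, -0.53 (-0.58 to -0.49) with FSK and -0.20 (-0.28 to -0.13) with Ex-4. Trpm5 had log2 ratios of -0.27 (-0.537 to -0.001), -0.83 (-1.21 to -0.45) and -0.56 (-0.83 to -0.29) in the same order, all below 0. The untreated Trpm5 difference was not called, and 36.6% of kept genes had a lower ratio. Genotype ratios with FSK and Ex-4 were not set beside those of all genes. The genotype ratios of Trpm7 were 0.35, 0.16 and -0.06, and those of Trpm2 were -0.11, 0.13 and -0.48. The Trpm3 difference with Ex-4 was small beside a WT level that was itself lower than without treatment.

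**Figure D3:**
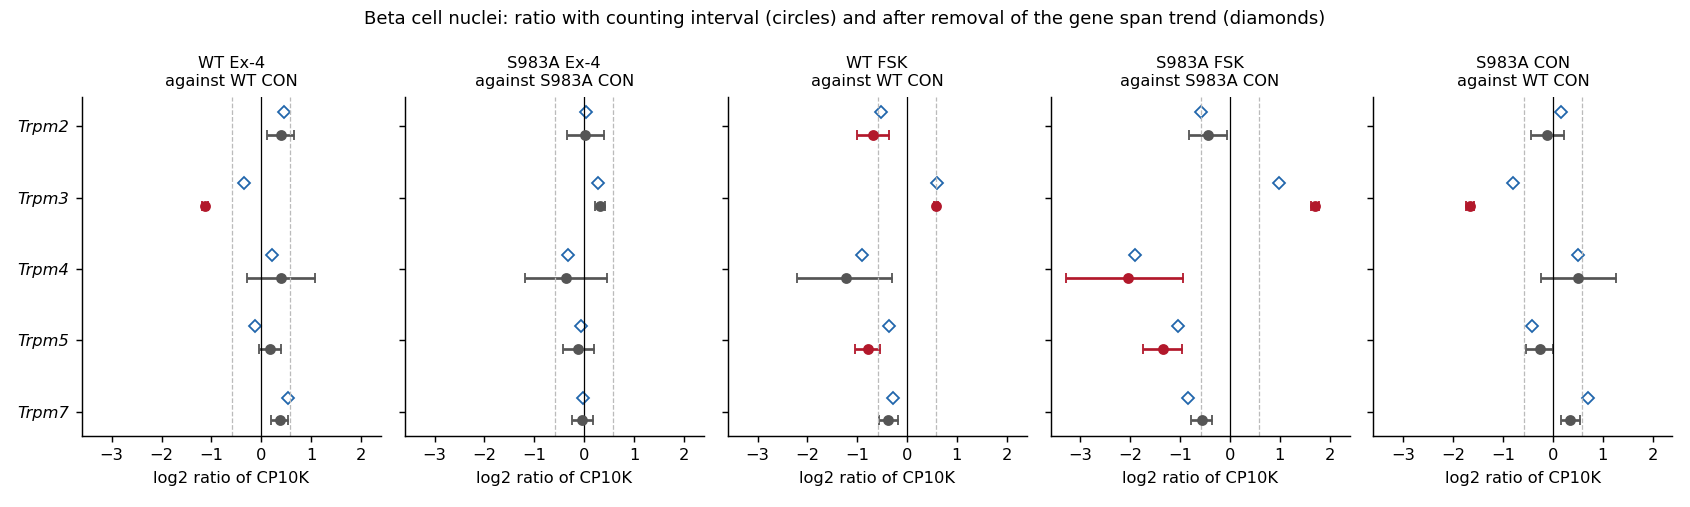
Log2 ratio of CP10K in beta cell nuclei (horizontal axis) for 5 TRPM genes in the 5 comparisons. Circles with bars are ratios with their counting intervals, in red where called, diamonds are the same ratios after removal of the trend on gene span, and dashed lines mark 1.5-fold. Trpm3 lies at -1.13, 0.32, 0.59, 1.71 and -1.66 from left to right, and at -0.34, 0.28, 0.60, 0.99 and -0.80 without the trend.

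Trpm3 lies at the long end of all genes. Of the members, it had the largest trend in beta cells with Ex-4 in WT (-0.80), with FSK in the mutant (0.73) and between untreated genotypes (-0.86). With FSK in WT the trend was larger for Trpm5 (-0.42) and Trpm4 (-0.31) than for Trpm3 (-0.015). Without the trend, Trpm5 and Trpm4 with FSK in the mutant were at -1.05 and -1.91, still past 1.5-fold. In beta cells the longest group of 10 groups of equal size (from about 167 kb) had a median log2 ratio of -0.54 with Ex-4 in WT, 0.01 with Ex-4 in the mutant, 0.02 with FSK in WT, 0.68 with FSK in the mutant and -0.69 between untreated genotypes. Within that group, 9.78% of genes had a lower ratio than Trpm3 with Ex-4 in WT and 4.37% between untreated genotypes. A higher ratio was found in 17.0% with FSK in WT and in 10.4% with FSK in the mutant. Trpm3 therefore lay outside the quartiles of that group in 5 of 5 comparisons. Those that use the untreated mutant column rest on the level known when the genes were chosen. The group does not match Trpm3 for length, since with Ex-4 in WT its median span was 282 kb, beside 856 kb for Trpm3. In that comparison the trend at the Trpm3 span was -0.80, below the group median. The part of gene length in the differences cannot be told apart from that of the conditions with 1 pool each.

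**Figure D4:**
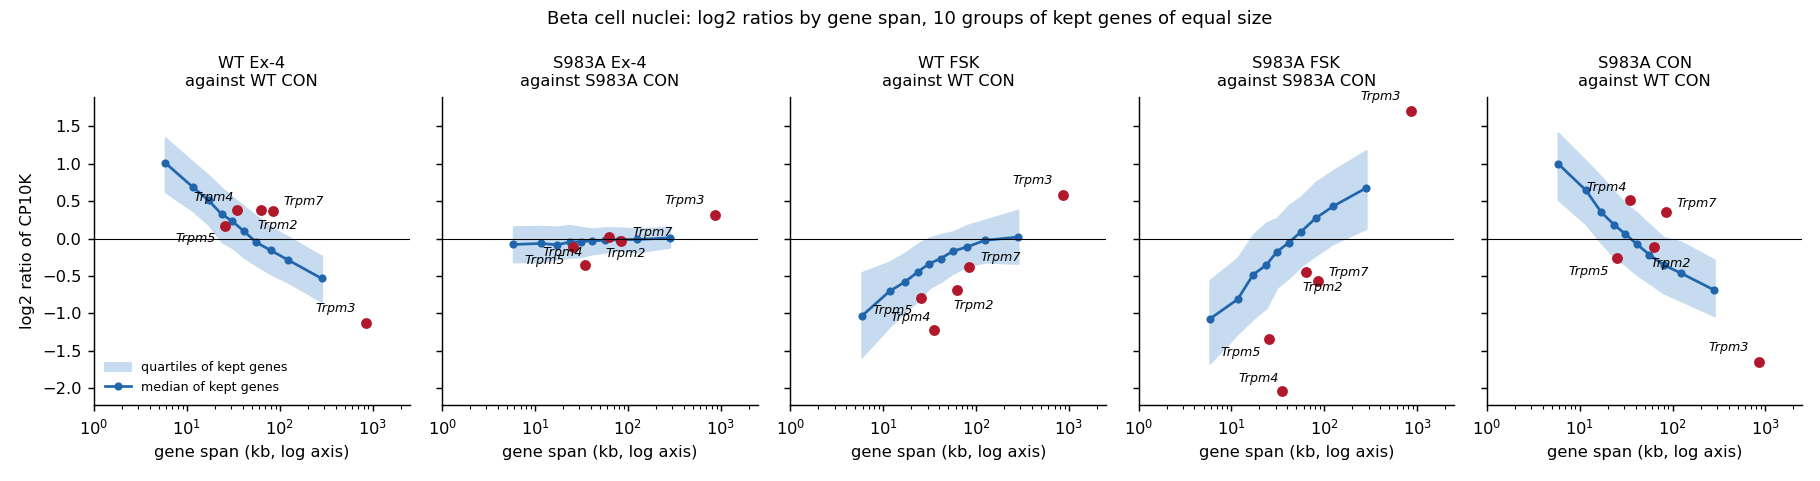
Log2 ratio of CP10K in beta cell nuclei (vertical axis) against gene span in kb (horizontal log axis) in the 5 comparisons. The line and band are the median and quartiles of kept genes in 10 span groups of equal size, plotted at the median span of each group, and red points are TRPM genes. Trpm3 at 856 kb lies outside the band of the longest group in all 5 panels. The medians of that group are -0.54, 0.01, 0.02, 0.68 and -0.69 from left to right.

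In WT delta cells Trpm3 was 32.3 CP10K untreated, 9.01 with FSK and 11.2 with Ex-4, and 8.78, 9.31 and 7.33 CP10K in the mutant in the same order. The untreated WT column was the 1 high column, and the other 5 lay close together. All 3 delta differences that were called therefore rest on that column. With Ex-4 in WT, 1 of 5 members was called in delta cells beside 10.1% of 9256 kept genes, Trpm3 with a log2 ratio of -1.53 (-1.69 to -1.38). With FSK in WT it was 1 of 5 beside 8.99%, Trpm3 with -1.84 (-2.01 to -1.67). Between untreated genotypes it was 1 of 5 beside 15.0%, Trpm3 with -1.88 (-2.03 to -1.73). After removal of the span trend these ratios were -0.68, -1.60 and -0.86, all past 1.5-fold.

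In the mutant, 0 of 5 members were called in delta cells with Ex-4, beside 0.81% of kept genes, and 0 of 5 with FSK, beside 19.8%. Trpm3 with FSK had a log2 ratio of 0.09 (-0.09 to 0.26) in mutant delta cells, where beta cells had 1.71. In WT the FSK ratios were opposite in sign, 0.59 in beta and -1.84 in delta cells. Trpm3 in delta columns was 119%, 90.3%, 102% and 68.3% of its beta level in WT CON, WT Ex-4, S983A CON and S983A Ex-4, but 22.1% and 33.0% in WT FSK and S983A FSK. The interval of this share lay below 100% in 4 of 6 conditions, those with FSK and those with Ex-4, and the FSK shares were the lowest. Marker lists differed between the same delta columns. The 7 beta cell markers summed to 11.9 CP10K in the WT CON delta column, to 5.26 with FSK, to 6.88 with Ex-4 and to 8.28 in S983A CON. The 5 neuron markers summed to 31.5, 31.2, 18.1 and 16.0 CP10K in the same order, and the 4 delta cell markers to 5.38, 9.73, 5.58 and 4.36. The part of these lists in the Trpm3 differences was not tested. Trpm7, by contrast, was lowest in the untreated WT delta column, at 1.24 CP10K, and between 1.61 and 2.60 in the other 5, with a log2 ratio of 0.68 (0.14 to 1.23) with FSK in WT that was not called because the Poisson intervals overlapped.

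**Figure D5:**
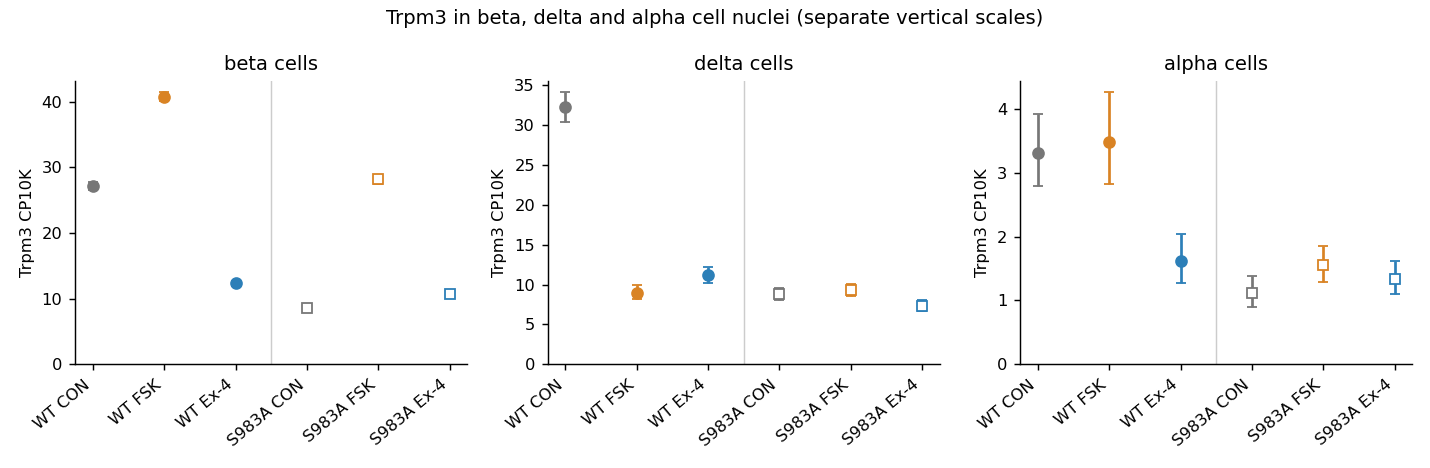
Trpm3 level in CP10K (vertical axis from 0, separate scales) in the 6 conditions in beta, delta and alpha cell nuclei. Points are pooled columns and bars exact Poisson 95% intervals. FSK columns are the highest in beta cells (40.8 and 28.2 CP10K), untreated WT is the highest in delta cells (32.3 CP10K), and untreated and FSK-treated WT are the highest in alpha cells (3.32 and 3.49 CP10K).

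In WT alpha cells Trpm3 was 3.32 CP10K untreated, 3.49 with FSK and 1.62 with Ex-4, and 1.12, 1.55 and 1.34 CP10K in the mutant. The WT CON and FSK columns were the high ones. With Ex-4 in WT, 1 of 5 members was called in alpha cells beside 12.2% of 9487 kept genes, Trpm3 with -1.03 (-1.46 to -0.62). Between untreated genotypes it was 1 of 5 beside 17.1%, Trpm3 with -1.56 (-1.96 to -1.17). After removal of the span trend the ratios were -0.11 and -0.50, short of 1.5-fold. The 7 beta cell markers in the alpha columns summed to 33.4 CP10K in untreated WT, to 19.2 with Ex-4 and to 15.0 in the untreated mutant, and the 6 alpha cell markers to 118, 50.0 and 48.9 CP10K. In these columns both lists were lower where Trpm3 was lower, and the mutant Ex-4 column was also low in both (15.3 and 47.8 CP10K). The FSK columns departed from this order. With FSK in WT the beta cell markers were at 17.2 CP10K and the alpha cell markers at 138.6, with Trpm3 at 3.49. With FSK in the mutant the alpha cell markers were at 112.5 CP10K, with Trpm3 at 1.55. The part of both lists in the alpha differences was not tested. No member was called with FSK in WT (4.57% of kept genes) or in the mutant (13.4%), nor with Ex-4 in the mutant (0.791%). Trpm4, which was higher in alpha than in beta cells, had log2 ratios of -0.02 (-1.06 to 1.02) with Ex-4 in WT and -0.64 (-2.15 to 0.70) with FSK in WT, intervals too wide to place it.

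The levels of some members went together over the 18 beta, alpha and delta columns, which share cell type and condition as sources of spread. Of 6693 genes compared, with at least 500 counts in the table, Trpm5 was the one most alike Trpm2 by the correlation of log2(CP10K + 1) (r = 0.96), both being higher in beta than in alpha and delta cells. Trpm5 itself was most alike Fam151a (0.977), Gm49542 (0.974) and Pitpnm3 (0.971). Genes most alike Trpm3 included Glis3 (0.977), which encodes a zinc finger transcription factor, and Slc7a14 (0.968). Trpm7 was most alike Zswim8 (0.796), Zfp507 (0.793) and Crebzf (0.793), and Trpm4 was most alike Shank3 (0.892), Dzip1 (0.881) and Tnrc6c (0.881). Between members, r was 0.48 for Trpm3 with Trpm5 and -0.63 for Trpm3 with Trpm4. The Trpm4 correlations, taken against 6694 genes, rest on 157 counts in beta, 90 in alpha and 59 in delta cells, few for each column.

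Genes that act with these channels were taken from lists chosen with earlier results known. Among other TRP channels, 15 of 22 were in the table and 5 passed the filter in beta cells. Trpc1, a receptor-linked cation channel, was 1.18 CP10K in untreated WT, 2.54 with FSK and 0.637 with Ex-4, and 0.618, 2.46 and 0.554 in the mutant. As for Trpm3, both FSK columns were highest, untreated WT came next and the other 3 were lowest. Trpc4 was called lower with Ex-4 in WT (-1.29), with FSK in WT (-0.62) and between untreated genotypes (-1.55), and higher with FSK in the mutant (0.98). Mcoln1, a lysosomal calcium channel, was called higher with Ex-4 in WT (0.92) and lower with FSK in WT (-0.85) and in the mutant (-1.24). Without the span trend, the Mcoln1 ratios with Ex-4 and FSK in WT were 0.35 and -0.23 and that of Trpc4 with FSK in the mutant was 0.47, all short of 1.5-fold. In all, 3 of 5 were called in WT with Ex-4 (29.6% of all kept genes) and 3 of 5 with FSK (25.5%). In the mutant 3 of 5 were called with FSK (39.8%) and 0 with Ex-4 (1.47%), and 2 of 5 between untreated genotypes (34.4%). Their median log2 ratio with FSK in the mutant was 0.98, beside -0.14 over all kept genes.

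For TRPM2, the genes that make and break down ADP-ribose are of interest, and 7 of 9 passed the filter. Parp1 and Parp2, which build poly(ADP-ribose), were called higher with Ex-4 in WT (1.00 and 1.35) and in the untreated mutant (1.06 and 1.02), and lower with FSK in the mutant (-1.09 and -1.21). Without the span trend, the Parp2 ratios were 0.75, 0.50 and -0.56 in this order, the last 2 short of 1.5-fold. No other gene of the list was called, so that the counts were 2 of 7 with Ex-4 in WT (29.6% of all kept genes), between untreated genotypes (34.4%) and with FSK in the mutant (39.8%), and 0 of 7 with FSK in WT (25.5%) and with Ex-4 in the mutant (1.47%). Cd38, the ADP-ribosyl cyclase, was at most 0.00519 CP10K in a beta column. Of the taste-type cascade that acts with TRPM5, 2 of 8 genes were in the table and 1 passed the filter. This was Itpr3, an inositol trisphosphate receptor, called higher with Ex-4 in WT (0.62) and in the untreated mutant (0.95) and lower with FSK in WT (-0.62) and in the mutant (-1.17). Itpr3 and Trpm5 were therefore both lower with FSK, whereas in the untreated mutant Trpm5 was not higher (-0.27).

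For TRPM3, 14 of 14 genes of phosphoinositide supply and calmodulin passed the filter. The counts called were 2 higher and 3 lower with Ex-4 in WT (beside 29.6% of all kept genes in either direction) and 0 higher and 2 lower with FSK in WT (25.5%). They were 4 higher and 3 lower with FSK in the mutant (39.8%), 2 higher and 4 lower between untreated genotypes (34.4%), and 1 higher with Ex-4 in the mutant (1.47%). Pip5k1b, a PIP2-making kinase, went from 4.45 to 10.9 CP10K with FSK in the mutant (1.29) and was lower in the untreated mutant (-1.11). Plcb1, a PIP2-cleaving phospholipase, went from 7.48 to 3.89 CP10K with Ex-4 in WT (-0.94) and was 3.52 CP10K in the untreated mutant. Without the span trend the 3 log2 ratios of Pip5k1b and Plcb1 with a lower level were -0.45, -0.20 and -0.26. The median log2 ratio of the list was 0.12 with Ex-4 in WT, beside 0.16 over all kept genes.

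For TRPM6 and TRPM7, 11 of 13 genes of magnesium transport passed the filter. With Ex-4 in WT 0 were called higher and 3 lower (beside 29.6% of all kept genes in either direction), and between untreated genotypes 0 higher and 4 lower (34.4%), with medians of -0.32 and -0.54 beside 0.16 and 0.002 over all kept genes. Arl15, a small GTPase that acts on the CNNM transporters, was 2.96 CP10K in untreated WT and 1.28 with Ex-4, 0.862 in the untreated mutant and 2.31 with FSK there. Cnnm1, of that transporter family, was called lower with Ex-4 (-0.88) and FSK (-0.81) in WT and in the untreated mutant (-1.22). With FSK in the mutant 4 were called higher and 1 lower (39.8%), with FSK in WT 1 higher and 2 lower (25.5%), and with Ex-4 in the mutant 0 (1.47%). Trpm7 itself had log2 ratios of 0.37 with Ex-4 in WT, 0.35 between untreated genotypes and -0.57 with FSK in the mutant, opposite in sign to Arl15. With FSK in WT both were below their untreated levels, Trpm7 at a log2 ratio of -0.38 and Arl15 at 2.67 CP10K, and Trpm7 was called in none of these comparisons.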

How the data were processed

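Single nucleus RNA-seq of cultured mouse islets was used. Per the study's methods, the authors aligned and counted reads with split-pipe against mm39, removed nuclei with extreme counts or much mitochondrial RNA, annotated clusters in Seurat from marker genes, and pooled nuclei by condition and cell type. The values deposited by the authors are the natural log of 1 plus counts per 10000. To return to counts, a total was found for every column at which its values became whole, and 100% did so to within 0.001 (maximum deviation 6.39e-05). Whether pooled counts were raw or corrected, the annotation release and strand use are not stated in these sources. Totals per condition were 3652805 to 4085574 counts.

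Levels had exact Poisson and ratios exact Clopper-Pearson 95% intervals, for counting error only. Genes were kept at or above the 40th percentile of mean CP10K (10093 in beta, 9487 in alpha and 9256 in delta cells) and called at 1.5-fold with Poisson intervals apart, a rule tested on simulated data. The members, the lists and the named genes (all members, the 3 genes most alike, and up to 3 called genes of a list with the largest ratios) were chosen with earlier results of these data known. One gene that the rule names is not reported here. Alternatives were other scalings, thresholds, filters and summaries over conditions, and removal of a lowess trend on gene span (smoothing span 0.3). GENCODE gave the spans of 97.4% of kept beta cell genes. The tools were Python 3.11.15 with scipy 1.17.1, pandas 2.3.3, numpy 2.4.6, matplotlib 3.10.9 and statsmodels 0.14.6.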

Additional observations from a re-analysis of the deposited data

Results flagged for a closer look

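The Trpm3 ratio to untreated cells had opposite signs in the 2 genotypes after Ex-4 in beta cells, with log2 ratios of -1.13 in WT and 0.32 in Med14 S983A, a difference of -1.45 that was not tested. Without the span trend these ratios were -0.34 and 0.28, both short of 1.5-fold, and the mutant ratio was not called. The mutant ratio has as its base the untreated mutant level, known to be low when the genes were chosen. The Trpm3 ratio after FSK in WT had opposite signs in beta and delta cells, 0.59 and -1.84, a difference of 2.43 that was not tested. Both rest on 1 pool for each condition.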

How the results depend on the processing

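With 1 pool for each condition, no replicate could be left out, and no paired analysis was possible because the columns carry no replicate numbers. The 13 member ratios called in beta, alpha and delta cells kept their direction under all 4 rescalings of the ratio, and 8 stayed past 1.5-fold on log2(CP10K + 1), 11 with the median of all genes set to 0, 12 with columns rescaled without 14 transcripts, and 8 without the span trend. The Trpm3 log2 ratio in beta cells with Ex-4 in WT was -1.08 on log2(CP10K + 1), -1.30 with the median set to 0, -1.05 with columns rescaled and -0.34 without the span trend. With FSK in WT it was 0.90 with the median set to 0. With FSK in the mutant the same 4 settings gave 1.60, 1.85, 1.57 and 0.99. Between untreated genotypes it was -1.55 on log2(CP10K + 1), -1.52 with columns rescaled and -0.80 without the span trend.

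In beta cells the number of members called with Ex-4 in WT was 0 without the span trend. With FSK in WT it was 0 on log2(CP10K + 1) and at a 2-fold threshold, and 1 with the median set to 0 and without the span trend. With FSK in the mutant it was 1 on log2(CP10K + 1) and 5 with columns rescaled, and between untreated genotypes it was 2 without the span trend. Trpm3 and Trpm5 were the 2 members highest in beta cells over all conditions, and in the untreated WT columns alone it was 1, since Trpm3 was then higher in delta cells. Depth limits Trpm4 and Trpm6 in all cell types and every member outside beta, alpha and delta cells, where single columns often held under 10 counts.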
